A study of Mus musculus with 6 samples.

Results

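The genes described are the zinc finger genes Zfp900 to Zfp999, taken by their symbols: every protein-coding gene of the count table whose mouse symbol is Zfp followed by a whole number of 3 digits, the first of them a 9. There were 66 of them among the 35565 genes listed, of which 21467 were protein-coding. They lie on 12 chromosomes, and 47 of them form 6 clusters, a cluster being 3 or more of these genes with successive starts under 1 Mb apart. The largest cluster, on chromosome 4, holds 16 genes.

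Bulk RNA sequencing compared gastruloids, aggregates of mouse embryonic stem cells that model the body plan, at day 5. Both groups were made from the ESC line TBV2 129/SvP and received a pulse of the WNT activator CHIR99021. There were 3 libraries of Control (NT), cells with a non-targeting construct that the labels describe as WT, and 3 libraries of T-UCstem1 KD-1, a single clone in which the long non-coding RNA T-UCstem1 was silenced. Any other difference between the clone and the control line cannot be told apart from the silencing, which was not checked here at the level of the targeted RNA. The 3 control libraries summed to 20982249, 34694406 and 56674906 estimated counts and the 3 KD-1 libraries to 41180012, 42407550 and 85561026, and values are given below in this order of depth within each group. Levels are CPM, counts scaled to a common library size with TMM factors. In bulk samples, fewer cells of a type and less RNA per cell cannot be told apart.

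Zinc finger proteins of the KRAB family bind DNA through an array of C2H2 fingers and carry a KRAB domain at the amino end. The KRAB domain recruits TRIM28, which brings the histone methyltransferase SETDB1 and other silencing factors to the bound site, often a retrotransposon. The genes multiply by local duplication, so that neighbours are often near copies of each other, and many of the mouse genes have no counterpart outside rodents. In the translated coding sequences, 63 of the 66 genes had at least 1 finger, with a median of 11 and a maximum of 21 in Zfp974. A KRAB-like pattern near the amino end was found in 60. No finger was found for Zfp957 and Zfp972, and Zfp999 had no complete coding sequence in the annotation.

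The genes were more often higher than lower in KD-1 gastruloids. Of the 63 genes tested, 33 rose (edgeR, adjusted p under 0.05 and a change of at least 1.5-fold), which is 52.4% against 19.7% of all 15110 genes tested, and 1 fell, against 18.1%. Leaving out each library in turn gave 30 to 35 rises and 1 to 3 falls. The median log2 fold change was 0.62, compared with -0.01 over all genes tested. Every KD-1 library lay above every Control (NT) library for 41 genes and below for 9, and the groups overlapped for 13. Over all genes tested, 35.3% lay above and 35.3% below. The summed level of the 66 genes was 1579, 1386 and 1447 CPM in the Control (NT) libraries of lowest, middle and highest depth, and 3518, 3842 and 3852 CPM in those of KD-1. The KD-1 sums were all above the Control (NT) sums. All 63 genes passed the filter on low counts (0.239 CPM in all 3 libraries) in each group alone. Among the 13337 genes of the table that did so, 17.5% rose and 18.4% fell. At an absolute log2 fold change over 1, 24 members rose and none fell, against 12.9% and 8.78% of all genes, and with no fold threshold 39 rose and 6 fell, against 30.9% and 32.6%. These shares set the members beside all genes and are no test of the group.

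Other Zfp symbols were nearer to the background. Of 293 tested genes numbered Zfp1 to Zfp899, 54 rose (18.4%) and 50 fell (17.1%), with a median log2 fold change of -0.01. In the block Zfp800 to Zfp899, 6 of 24 tested genes rose (25%) and 2 fell (8.33%), with a median of 0.13. Among the members the rise was unequal between places: 16 of 16 rose in the chromosome 4 cluster, whereas outside it 17 of 47 rose (36.2%) with a median of 0.30. The 18 tested genes that belong to no cluster had 3 rises and a median of 0.05. These rises were 16.7% of them, no more than the 19.7% of all genes tested.

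**Figure D1:**
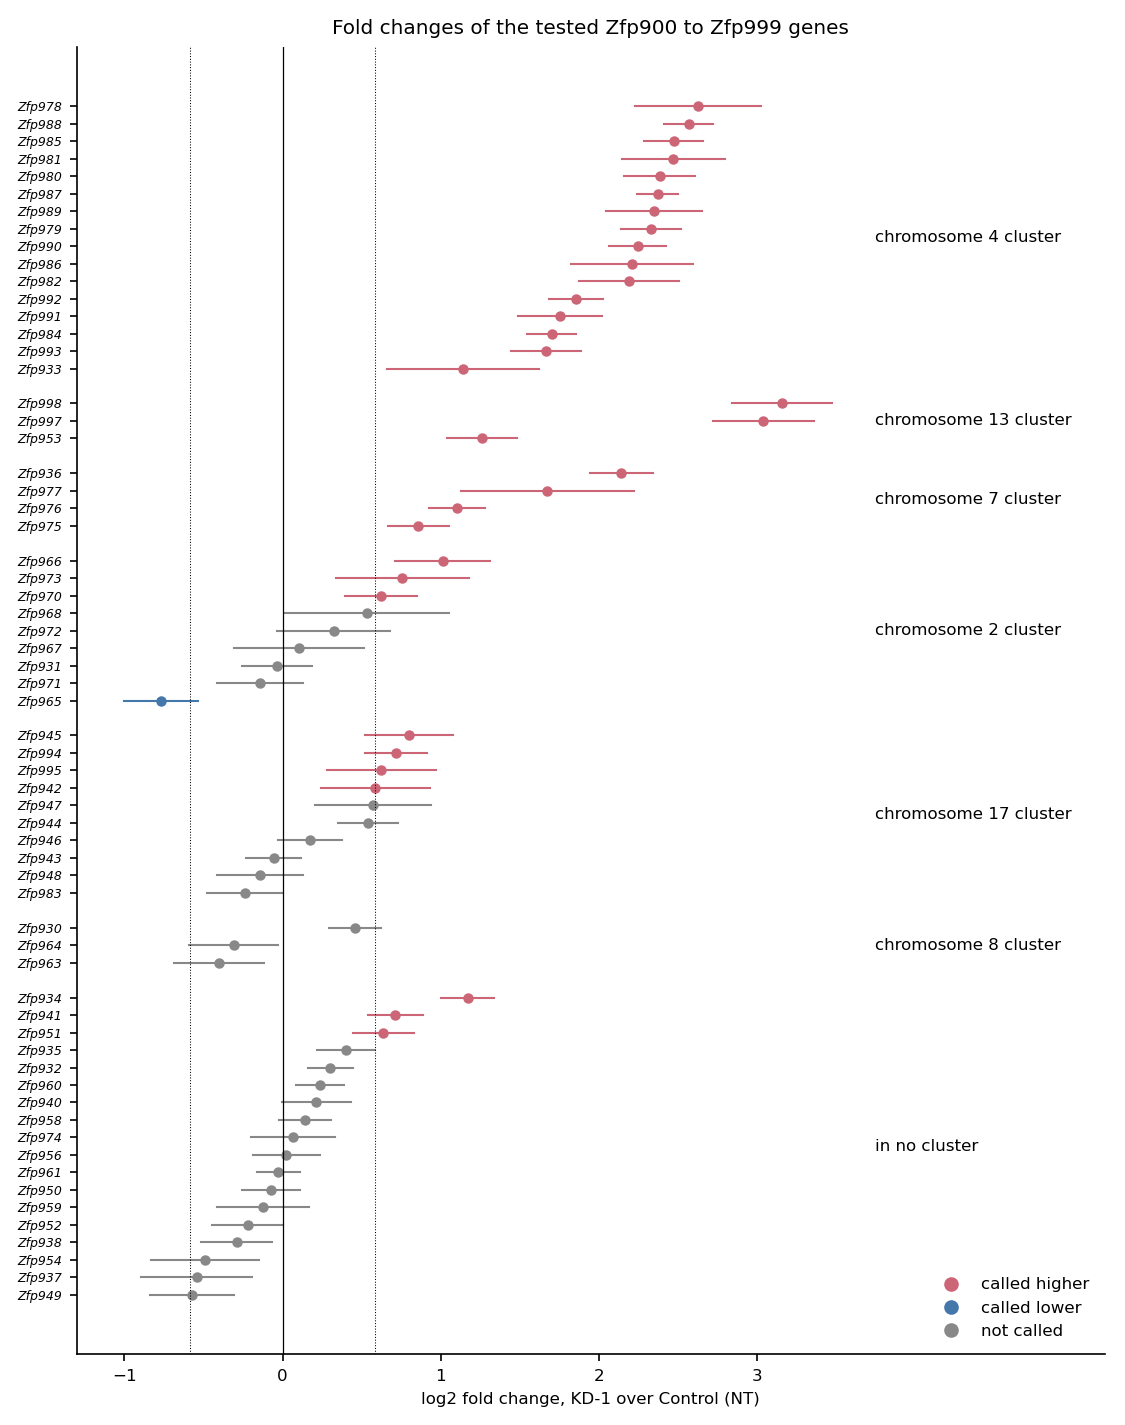
Log2 fold change of KD-1 over Control (NT) (points) with its 95% interval (lines) for the 63 tested genes, grouped by cluster and ordered by size, with dotted lines at a 1.5-fold change. All 16 genes of chromosome 4 lie to the right of the upper dotted line, and Zfp965 on chromosome 2 is the only gene called lower.

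The 16 genes of chromosome 4 (GRCm39, chr4:145237287-147932882) all rose, by a log2 fold change of 1.14 to 2.63 with a median of 2.29. Their summed level was 542, 473 and 486 CPM in Control (NT) and 2155, 2371 and 2366 CPM in KD-1, a ratio of 4.59 between the group means. The groups did not overlap for any of the 16 genes. These genes are partial copies of each other, with a median of 64.2% of the words of 31 bases in their transcripts (31-mers) shared with another gene, and a median of 44.7% shared with genes other than the 16 and 15.2% with genes outside the stretch they span. The counts of single genes are therefore uncertain, and so is the sum.

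Zfp978 (ENSMUSG00000078497, chr4:147445760-147476483, plus strand), with 3 fingers in its coding sequence, had 12.7, 7.02 and 10.1 CPM in the Control (NT) libraries of lowest, middle and highest depth and 56.8, 62.7 and 62.3 CPM in those of KD-1. The KD-1 libraries lay close together, and the middle Control (NT) library was the lowest of the 6. Its log2 fold change was 2.63 ± 0.17 (SE), the largest of the cluster (edgeR adjusted p = 3.83e-06). Zfp988 (ENSMUSG00000078498, chr4:147390131-147422025, plus strand), with 14 fingers, had 23.1, 22.8 and 21.5 CPM in Control (NT) and 124, 140 and 135 CPM in KD-1. Here both groups were tight and far apart, with a log2 fold change of 2.57 ± 0.07 (SE, edgeR adjusted p = 2.95e-08). The next rises of the cluster were those of Zfp985 (2.47), Zfp981 (2.47), Zfp980 (2.39) and Zfp987 (2.37).

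The smallest rise was that of Zfp933 (ENSMUSG00000059423, chr4:147907443-147932882, minus strand), the last gene of the cluster. It had 15.0, 7.37 and 12.7 CPM in Control (NT) and 24.4, 24.5 and 27.7 CPM in KD-1. Every KD-1 library was above every Control (NT) library, and the Control (NT) libraries differed by more among themselves than those of KD-1. The log2 fold change was 1.14 ± 0.21 (SE, 95% interval 0.66 to 1.62, edgeR adjusted p = 0.00145), and this interval lies below the interval of Zfp988 (2.41 to 2.73).

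**Figure D2:**
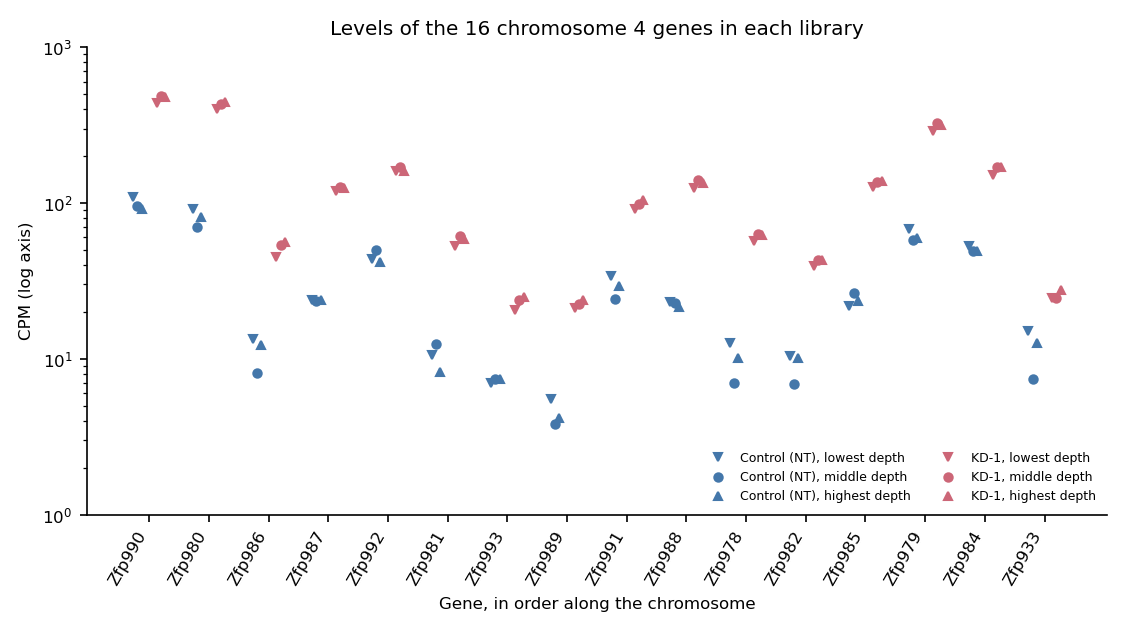
Level of each of the 16 chromosome 4 genes (x axis, in order along the chromosome) in CPM on a log axis, with 1 point for each of the 6 libraries, blue for Control (NT) and red for KD-1 and the shape giving the depth. The red points lie above the blue points for all 16 genes, and the gap is narrowest for Zfp933 at the right end.

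Scaled by exon length, the 4 most abundant genes in KD-1 belonged to this cluster. Zfp980 rose from 19.2 to 100.2 CPM per kb, Zfp990 from 13.1 to 62.2, Zfp984 from 16.2 to 52.6 and Zfp979 from 10.5 to 52.9 CPM per kb. In Control (NT) Zfp979 lay below Zfp966 (12.8) and Zfp965 (12.5 CPM per kb) of chromosome 2, and the first place belonged to Zfp960 of chromosome 17, named after its values were seen, with 20.6 CPM per kb there and 24.2 in KD-1, a count that is uncertain because 85.0% of its 31-mers also occur in Zfp97.

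The rise was shared by other genes of the same stretch and not by most genes beside it. Counts of neighbours are over the genes that passed the filter in each group alone, so that low counts in 1 group did not fix their direction. Within the span of the cluster, 15 of 17 other such genes rose and none fell, with a median log2 fold change of 2.30, while 7 more were tested through KD-1 alone. The 15 included all 5 protein-coding genes tested, which were Zfp600 (2.51), Zfp268 (2.46), Gm21411 (2.45), Zfp534 (2.39) and Rex2 (2.27), and the rest were pseudogenes. Of the 31-mers of Zfp980, 67.8% also occur in Rex2, of those of Zfp978 58.1% in Zfp600, and of those of Zfp984 56.4% in Zfp268. The counts of these neighbours are therefore uncertain too. Genes of the span and its flanks were named after their values were seen. Within 1 Mb on each side, 5 of 23 genes rose and 4 fell, with a median of 0.02. At the near edges of these flanks, the pseudogenes Gm13230 (2.45) and Smarca5-ps (1.73) rose before the first member, and Miip (3.72) rose after the last. Close beyond Miip, Mfn2 (0.02) was not called and Plod1 (-3.50) fell. On the rest of chromosome 4, 119 of 816 genes rose and 140 fell, with a median of -0.06.

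**Figure D3:**
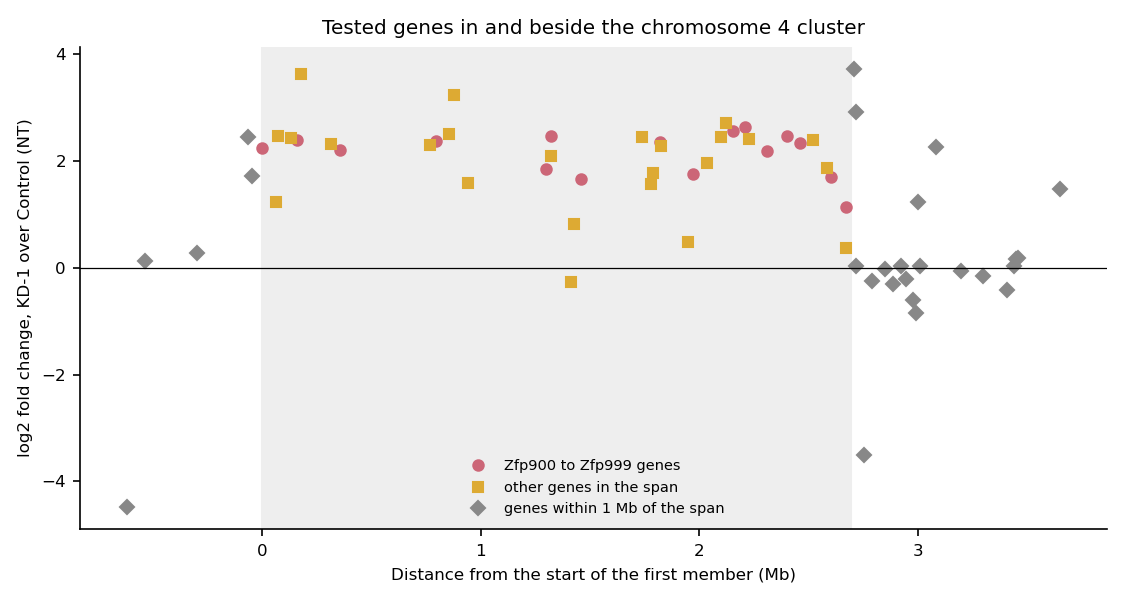
Log2 fold change of KD-1 over Control (NT) for each tested gene against its distance in Mb from the start of Zfp990, the first gene of the cluster, with the span of the cluster shaded. Most points in the shaded span lie near 2, both Zfp900 to Zfp999 genes (red circles) and other genes (yellow squares), while most genes outside it (grey diamonds) lie near 0. The yellow squares include 7 genes tested through KD-1 alone and the grey diamonds 2. The direction of these was fixed by the filter and is no result.

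The promoters are printed because genes of this cluster rose together and because the promoter of Zfp933 differs from those of its neighbours. RefSeq promoters (GRCm38.p6, 250 bases before to 50 after the start) were found for 53 of the 66 genes, 10 of them in the chromosome 4 cluster. The 250 bases before the start of Zfp988 (chr4:147305354-147305603, plus strand), Zfp979 (chr4:147642509-147642758, minus strand) and Zfp933 (chr4:147848419-147848668, minus strand) read 5′ to 3′:
Zfp988: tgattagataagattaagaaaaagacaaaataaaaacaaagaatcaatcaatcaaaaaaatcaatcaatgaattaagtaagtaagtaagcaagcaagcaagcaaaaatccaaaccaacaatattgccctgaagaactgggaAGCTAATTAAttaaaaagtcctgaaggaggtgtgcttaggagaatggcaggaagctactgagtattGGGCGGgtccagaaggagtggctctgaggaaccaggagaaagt
Zfp979: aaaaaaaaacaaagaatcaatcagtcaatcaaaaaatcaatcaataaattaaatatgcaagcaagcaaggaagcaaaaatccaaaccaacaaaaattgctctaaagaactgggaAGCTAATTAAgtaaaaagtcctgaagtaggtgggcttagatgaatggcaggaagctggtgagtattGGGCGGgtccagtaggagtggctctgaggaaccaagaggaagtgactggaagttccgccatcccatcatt
Zfp933: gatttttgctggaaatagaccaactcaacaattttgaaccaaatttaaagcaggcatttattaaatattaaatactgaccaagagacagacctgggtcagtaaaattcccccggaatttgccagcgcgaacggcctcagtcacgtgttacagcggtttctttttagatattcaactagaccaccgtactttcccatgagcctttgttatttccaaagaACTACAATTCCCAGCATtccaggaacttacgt
Capitals mark AGCTAATTAA and GGGCGG in the first pair and ACTACAATTCCCAGCAT in Zfp933. These words were chosen after the sequences had been read, and both strands of all 300 bases were searched.

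AGCTAATTAA was found in 8 of the 10 promoters of the cluster (Zfp979, Zfp980, Zfp981, Zfp982, Zfp984, Zfp985, Zfp987 and Zfp988) and in none of the other 43 members. Of 27025 genes in the promoter table, 22 hold it (0.0814%). Beside the members these include Rex2, Zfp534 and Zfp600, all 3 in the span of the cluster and higher in KD-1. Of the other 11 genes, D1Pas1 (4.14), Triml1 (1.12) and Alkbh5 (0.69) were also higher, Pdlim5 (0.40) was not called, Pld4 (-1.20) was tested through Control (NT) alone and the rest had no fold change. GGGCGG was found in 7 of the 10, against 38.2% of all genes, and equally in 7 of 10 promoters of the chromosome 17 cluster. In the 7 of chromosome 4 it overlaps ATTGG, the other strand of CCAAT, in the run ATTGGGCGG, which 82 of all genes hold. ACTACAATTCCCAGCAT was found in 3 genes of the table (0.0111%), Zfp933 being the only member. The other promoter of the cluster without AGCTAATTAA was that of Zfp993, which rose by 1.67 on the log2 scale.

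The 8 promoters with AGCTAATTAA were near copies of each other. Over their 28 pairs, 65.3% to 91.0% of the 300 bases were identical in the alignment, with a median of 81.8%. Between Zfp933 and these 8, the median was 2.00%, which is also the median over pairs of genes from different clusters. These are shares of all 300 bases and not of the aligned bases. End gaps were free, so unlike promoters could be aligned over few bases. A value this low shows only that no long alignment was found, and is no measure of how alike the 2 sequences are. A match or its lack describes these letters in this window only.

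On chromosome 13 (GRCm39, chr13:66261294-67508757), the cluster of 4 genes held the largest rises of all. Zfp998 (ENSMUSG00000074832, chr13:66566173-66589226, minus strand), with 14 fingers, had 13.5, 8.79 and 12.4 CPM in Control (NT) and 97.6, 105 and 106 CPM in KD-1. All KD-1 libraries stood far above those of Control (NT). Its log2 fold change was 3.16 ± 0.14 (SE, edgeR adjusted p = 3.86e-07), an 8.94-fold rise. Zfp997 (ENSMUSG00000095909, chr13:66261294-66271953, plus strand), with 19 fingers, had 5.02, 3.37 and 4.78 CPM in Control (NT) and 33.1, 36.3 and 38.6 CPM in KD-1. Again the groups were far apart, with a log2 fold change of 3.04 ± 0.14 (SE, edgeR adjusted p = 4.68e-07). Zfp953, at the far end of the cluster, rose less, with 8.44, 7.19 and 7.94 CPM against 17.3, 19.2 and 19.7 CPM and a log2 fold change of 1.26 ± 0.10 (SE, edgeR adjusted p = 9.71e-06).

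Zfp999, the remaining gene of the cluster, was too low to be tested. The control libraries gave 0, 0 and 1 counts and the KD-1 libraries 3, 2 and 7. Of the 31-mers in the transcripts of Zfp998, 50.7% also occurred in transcripts of another gene, and of those of Zfp997, 84.6%, so that their counts are uncertain. Of 24 other genes in the span that passed the filter in each group alone, 12 rose and 2 fell (median 0.59), and of 23 within 1 Mb on each side, 9 rose and 1 fell (median 0.51). Across the rest of chromosome 13, 104 of 487 such genes rose and 66 fell (median 0.10).

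All 4 genes of the chromosome 7 cluster (GRCm39, chr7:42226953-42844955) rose. Zfp936 (ENSMUSG00000064194, chr7:42763653-42844955, plus strand) had 15.9, 18.9 and 15.8 CPM in Control (NT) and 70.7, 75.8 and 77.0 CPM in KD-1. No library of one group came near the other, and the log2 fold change was 2.14 ± 0.09 (SE, edgeR adjusted p = 2.51e-07). Zfp975 rose least, from 24.6, 20.7 and 22.1 CPM to 38.6, 43.1 and 40.3 CPM, a log2 fold change of 0.86 ± 0.08 (SE, edgeR adjusted p = 3.59e-05). Zfp977 (3.19-fold) and Zfp976 (2.15-fold) lay between them. The summed level of the 4 genes was 64.3, 60.2 and 58.4 CPM in Control (NT) and 155, 167 and 168 CPM in KD-1, a ratio of 2.68. A median of 38.3% of their 31-mers was shared with another gene, and 29.5% with genes other than the 4. The counts of these genes and their sum are therefore uncertain too.

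The chromosome 2 cluster (GRCm39, chr2:175214229-177720294) was the only one with members called in both directions. Of 9 tested genes, 3 rose (33.3%, against 19.7% of all genes tested), 1 fell (11.1%, against 18.1%) and 5 were not called. The median log2 fold change was 0.32. Zfp966 (ENSMUSG00000089756, chr2:175710674-175722893, minus strand) had 44.5, 30.6 and 39.9 CPM in Control (NT) and 68.7, 82.7 and 79.98 CPM in KD-1. All KD-1 libraries were higher, by a log2 fold change of 1.01 ± 0.13 (SE, edgeR adjusted p = 0.000206). Zfp965 (ENSMUSG00000078896, chr2:175311778-175323964, plus strand) had 31.3, 24.5 and 31.4 CPM in Control (NT) and 16.6, 16.99 and 17.4 CPM in KD-1. All KD-1 libraries were lower and nearly equal, and the log2 fold change was -0.77 ± 0.10 (SE, edgeR adjusted p = 0.000224). The other rises were those of Zfp973 (0.76) and Zfp970 (0.62). Without the control library of middle depth these were 0.56 and 0.52 and no longer reached a 1.5-fold change, which left Zfp966 as the only rise of the cluster. With all libraries kept, 12 of 31 other genes in the span that passed the filter in each group alone rose and 3 fell. Within 1 Mb on each side, 5 of 14 such genes rose and 3 fell, so that rises were about as frequent among the neighbours as among the members.

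The counts of most genes of this cluster are uncertain, because these genes are near copies and Salmon divides reads between them. Of the distinct 31-mers in the transcripts of each gene, a median of 95% also occurred in transcripts of another gene, and for Zfp966 and Zfp969 it was 100%. Of Zfp965, 97.9% were shared, 83.7% with Zfp973 alone. Zfp969 was at 0 in all 6 libraries, whereas all of its 31-mers also occur in Zfp968. A median of 71.6% of the 31-mers of each gene occurred in genes other than the cluster's members, and 60.8% in genes outside its span, so that summing the members does not remove the uncertainty. Summed over the cluster, the level was 217, 150 and 196 CPM in Control (NT) and 220, 254 and 252 CPM in KD-1. The sums did not overlap, but the lowest of KD-1 was close to the highest of Control (NT).

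The promoters of Zfp966 and Zfp965 are shown because the genes went in opposite directions, and that of Zfp936 for the rise on chromosome 7. They are the 250 bases before the start in GRCm38.p6, at chr2:175931101-175931350 (minus strand) for Zfp966, chr2:175469775-175470024 (plus strand) for Zfp965 and chr7:43177340-43177589 (plus strand) for Zfp936:
Zfp966: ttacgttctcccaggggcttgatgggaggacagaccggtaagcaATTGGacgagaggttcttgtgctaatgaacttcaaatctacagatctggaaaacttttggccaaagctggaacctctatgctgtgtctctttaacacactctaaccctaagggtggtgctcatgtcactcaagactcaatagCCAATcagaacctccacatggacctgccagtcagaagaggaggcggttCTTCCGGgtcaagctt
Zfp965: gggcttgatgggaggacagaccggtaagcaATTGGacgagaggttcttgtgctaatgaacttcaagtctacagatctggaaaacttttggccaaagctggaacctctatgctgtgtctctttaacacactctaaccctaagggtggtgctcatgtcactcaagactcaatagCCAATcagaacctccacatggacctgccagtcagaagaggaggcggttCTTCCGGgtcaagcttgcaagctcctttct
Zfp936: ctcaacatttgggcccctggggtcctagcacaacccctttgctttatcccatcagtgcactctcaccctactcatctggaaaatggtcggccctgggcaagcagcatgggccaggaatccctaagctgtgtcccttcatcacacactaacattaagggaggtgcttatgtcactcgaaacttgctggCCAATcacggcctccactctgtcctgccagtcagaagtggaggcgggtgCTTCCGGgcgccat
Capitals mark CCAAT, also as ATTGG on the other strand, and CTTCCGG, which do not overlap each other. The whole promoters of Zfp965 and Zfp966 were identical at 285 of 300 bases. CCAAT was found in 9 of 9 promoters of the chromosome 2 cluster and 4 of 4 of chromosome 7, against 41.1% of all genes, but also in 8 of 10 on chromosome 4, 2 of 2 of the chromosome 8 cluster, 14 of 17 of members in no cluster, 3 of 10 on chromosome 17 and 0 of 1 on chromosome 13. CTTCCGG was found in 6 of the 9 and 2 of the 4, against 9.93% of all genes, and in 2 of 10 on chromosome 17, 4 of 17 of members in no cluster and 0 of 10 on chromosome 4. Within the clusters the promoters were again near copies, with a median identity of 87.0% over 36 pairs on chromosome 2 and 80.8% over 6 pairs on chromosome 7.

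On chromosome 17 (GRCm39, chr17:21787117-23086292), 4 of 10 clustered genes rose (40%, against 19.7% of all genes tested) and none fell. The median log2 fold change of the 10 was 0.56. Zfp945, with 18 fingers, rose most, from 66.7, 45.6 and 59.2 CPM to 93.3, 103 and 102.3 CPM. The groups did not overlap, and the log2 fold change was 0.80 ± 0.12 (SE, edgeR adjusted p = 0.000508). The other rises were those of Zfp994 (0.72), Zfp995 (0.62) and Zfp942 (0.59). Zfp995 was at 0.49 without the shallowest control library and 0.57 without the deepest KD-1 library, and Zfp942 at 0.45, 0.55 and 0.56 without the middle or deepest control or the deepest KD-1 library, each short of a 1.5-fold change. With upper-quartile normalization Zfp942 was at 0.58, also short of it. Zfp983 was lowest of the cluster at -0.24 ± 0.11 (SE, edgeR adjusted p = 0.0784) and was not called. These genes shared less sequence than those of chromosome 2, with a median of 17.1% of 31-mers shared and a range of 1.43% to 35.5%. Of 11 other genes in the span that passed the filter in each group alone, 3 rose and none fell. Within 1 Mb on each side, 9 of 29 such genes rose and 6 fell.

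None of the 3 genes of the chromosome 8 cluster (GRCm39, chr8:69661686-70202640) was called. Zfp930 had 58.0, 51.6 and 54.1 CPM in Control (NT) and 69.3, 77.1 and 78.2 CPM in KD-1, with groups that did not overlap and a log2 fold change of 0.46 ± 0.07 (SE, edgeR adjusted p = 0.000592), short of a 1.5-fold change. Zfp963 was at -0.40 ± 0.13 (SE, edgeR adjusted p = 0.0207), also short of it. Outside the clusters, Zfp934 (1.17), Zfp941 (0.71) and Zfp951 (0.64) rose, Zfp951 falling just short of a 1.5-fold change (0.58) without the control library of middle depth. Of Zfp934, 40.7% of the 31-mers also occur in transcripts of Me3, so its count is uncertain too.

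**Figure D4:**
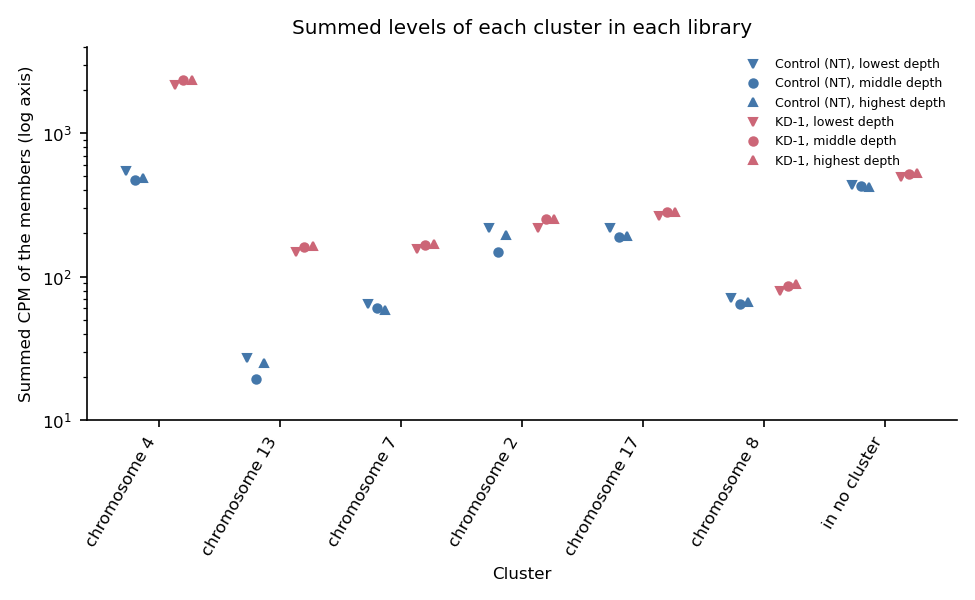
Summed level of the members of each cluster, and of those in no cluster, in CPM on a log axis, with 1 point for each of the 6 libraries, blue for Control (NT) and red for KD-1. The groups are far apart for chromosomes 4, 13 and 7, where the ratios of the means are 4.59, 6.62 and 2.68. They are closer for chromosomes 17, 2 and 8 and for the genes in no cluster, with ratios of 1.38, 1.29, 1.26 and 1.20.

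Of the 29 tested genes that were not called, 11 had an adjusted p under 0.05 without reaching a 1.5-fold change, 6 with a positive and 5 with a negative log2 fold change, and 18 had an adjusted p of 0.05 or more. For these 18 a change is not excluded by the test. Zfp957 and Zfp969 had 0 counts in all 6 libraries. For Zfp957 this allows up to 0.145 CPM in the shallowest library and 0.0345 CPM in the deepest, taking 3 counts as the limit. This limit covers counting error only. The 0 of Zfp969 sets no such limit, because all of its 31-mers also occur in Zfp968, which may hold its reads.

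The sharing of sequence bears on many of these genes. A median of 38.02% of the 31-mers of a gene was shared, at least 80% in 14 genes and under 20% in 22. Among the 21 tested genes that shared under 20%, 7 rose, none fell and the median log2 fold change was 0.17, whereas of the 12 tested genes that shared at least 80%, 8 rose, 1 fell and the median was 1.34. The shared sequence and the place go together here, since the genes that share little are mostly outside the chromosome 4 cluster. Within that cluster, Zfp982 shared 17.3% of its 31-mers and had a log2 fold change of 2.194 ± 0.14 (SE, edgeR adjusted p = 2.86e-06), near the median of the cluster, and Zfp933 shared 12.2% and had the smallest rise. The number of fingers did not separate the genes that rose from those not called, the median being 11 in both.

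**Figure D5:**
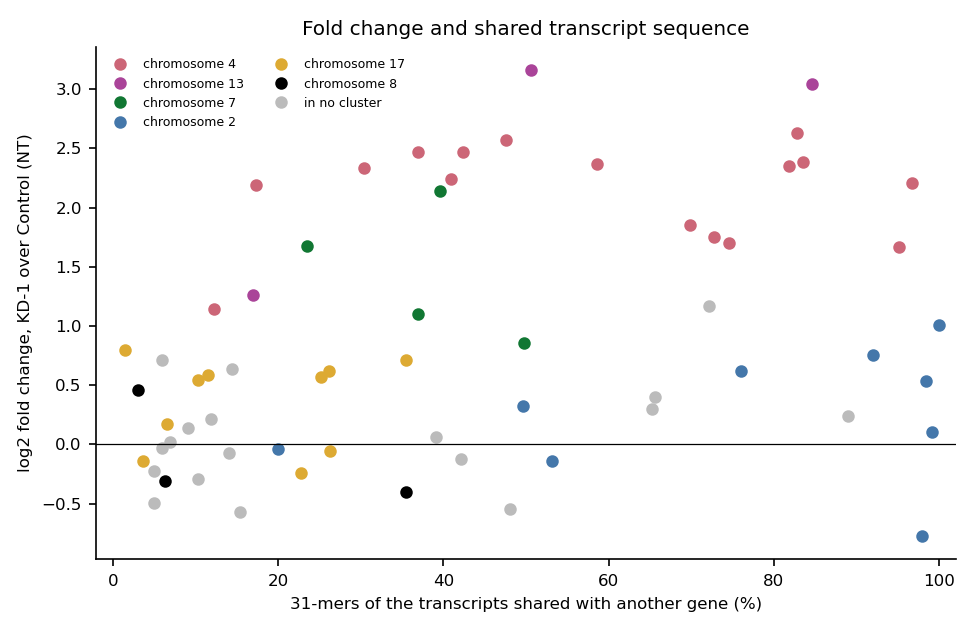
Log2 fold change of KD-1 over Control (NT) for the 63 tested genes against the percentage of the 31-mers of their transcripts that also occur in another gene, coloured by cluster. The genes of chromosome 4 lie above 1 along the whole axis, from 12.2% to 96.7% shared, and most genes in no cluster lie near 0.

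Of 24 tested genes of the silencing machinery through which KRAB zinc finger proteins act, 5 rose (20.8%, against 19.7% of all genes) and 2 fell (8.33%, against 18.1%), and the median log2 fold change was 0.11. Trim28, the cofactor that the KRAB domain recruits, had a log2 fold change of -0.13 ± 0.06 (SE, edgeR adjusted p = 0.0736), and Setdb1, its histone methyltransferase, of 0.11 ± 0.08 (SE, edgeR adjusted p = 0.222). Neither was called. The rises were those of Tasor (1.40), a subunit of the HUSH silencing complex, Smarcad1 (1.02), a remodeller that binds TRIM28, Dnmt3b (0.85), a DNA methyltransferase, Resf1 (0.76), a partner of SETDB1, and Morc3 (0.70), a chromatin ATPase. Dnmt3l (-1.39), a cofactor of DNA methylation, and Dnmt3a (-0.74), a DNA methyltransferase, fell.

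Among 8 KRAB zinc finger genes with known targets that are numbered outside the range, 3 rose and none fell. The rises were 37.5% of the list, against 19.7% of all genes tested, of which 18.1% fell. Zfp600, which lies in the span of the chromosome 4 cluster, rose by 2.51, Zfp819 by 1.15 and Zfp568 by 0.94 on the log2 scale. Zfp57, which protects methylation at imprinted loci, was at 0.07 ± 0.06 (SE) and Zfp809, which silences proviruses, at -0.05 ± 0.10 (SE), and neither was called.

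Markers of several cell types moved with the same groups. Of 14 pluripotency genes, 12 rose. The list summed to 904, 989 and 906 CPM in Control (NT) and 2831, 2848 and 2926 CPM in KD-1. Scaled by exon length, Sox2 was the most abundant of the list in KD-1 at 258.2 CPM per kb, followed by Pou5f1 at 213.8. Most of the list marks the naive state, but Pou5f1, Sox2 and Cripto are not particular to it, and Sox2 is also a neural gene. Of 8 presomitic and somite genes, the 3 that passed the filter in each group alone (Meox1, Foxc1 and Tcf15) fell, and 4 were tested through Control (NT) alone, so that their direction was fixed. The sum of the list went from 430, 502 and 452 CPM, mostly Meox1, to 3.67, 3.52 and 3.32 CPM, and the untested Msgn1 was close to 0 in both groups. Meox1, Foxc1, Foxc2 and Pax1 were each under 1 CPM in KD-1.

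Of 5 neural genes, 4 rose and Neurog2 was tested through KD-1 alone, with sums of 36.1, 38.9 and 34.8 CPM in Control (NT) and 149, 151 and 149 CPM in KD-1, Tubb3 being the most abundant there. Of 6 tail bud genes that passed in each group alone, 1 rose and 2 fell, with list sums of 165, 182 and 168 CPM against 191, 183 and 180 CPM, mostly Hoxb9. The 5 feeder fibroblast genes summed to 6.46, 7.58 and 8.27 CPM, mostly Col3a1, against 0.978, 0.896 and 0.725 CPM. None of them passed the filter in each group alone, the 3 collagens being tested through Control (NT) and Thy1 through KD-1, so no direction is read from them. The 5 genes listed for the two-cell-like state summed to 0.193, 0.0296 and 0.0180 CPM against 4.87, 4.39 and 3.995 CPM, mostly Zscan4f. Zscan4c and Zscan4f were at 0 in Control (NT), and the 3 genes of this list that could be tested passed the filter on low counts through KD-1 alone, so that their direction was fixed and is no result. The part of these cell types in the changes of the zinc finger genes was not tested.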

How the data were processed

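The authors sequenced TruSeq libraries from both ends and quantified the reads with Salmon (version 1.1) on a Gencode gene model whose genome build is not given in the sources used here. They deposited the estimated counts (expected counts) per gene as whole numbers, without normalization. Column suffixes could not be tied to the replicate numbers of the labels.

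Names and positions were taken from GENCODE vM39 (GRCm39), which held 35222 of the 35565 genes. It is of another mouse strain than the cells, and copies particular to the 129 strain were not analysed here. Counts were fitted with edgeR (version 4.0.16, R 4.3.3): filterByExpr, TMM, robust quasi-likelihood test, Benjamini-Hochberg over 15110 genes. The biological coefficient of variation was 10.6%. SE is the log2 fold change divided by the square root of F. Within a group, every pair of libraries differed beyond sampling noise (chi-square over genes). The Control (NT) library of middle depth stood apart. Its chi-square per gene was 36.3 against the control of lowest depth and 36.5 against that of highest depth, which differed from each other by 15.3.

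Shared 31-mers were counted on both strands. Fingers (C-X2,4-C-X12-H-X3,5-H) and a KRAB-like pattern (in the first 150 residues) were sought in the longest translated coding sequence. Promoters were aligned with free end gaps.

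Genes were named by rule: the 8 largest rises and falls among called members with groups that do not overlap and at least 10 counts in the higher group (library values for the first 4 each way), the 4 most abundant per kb, the extremes of each cluster, members at 0, and the gene lists. Only 1 fall qualified. Others were named after their values were seen. The members, lists and tests were chosen with earlier results of these data known. Alternatives were DESeq2 (version 1.42.0), limma-voom (version 3.58.1), other normalizations, filters and fold thresholds, each library left out, members that share little sequence, and symbols with a letter suffix. After the data were seen, 1 Mb flanks, cluster sums and counts of neighbours and markers that passed the filter in each group alone were added.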

Additional observations from a re-analysis of the deposited data

How the results depend on the processing

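Under DESeq2, limma-voom, RLE, upper-quartile or library size scaling, and either filter on low counts, 32 to 35 members rose and 1 fell. Leaving out each library gave 30 to 35 rises, 1 to 3 falls and a median log2 fold change of 0.56 to 0.70. There were 3 falls when the control library of middle depth or the KD-1 library of highest depth was left out (Zfp937 and Zfp949 added) and 2 when the shallowest control library was (Zfp954 added). Falls numbered 0 at an absolute log2 fold change over 1 (24 rises) and 6 with no fold threshold (39 rises). Among members sharing under 20% of 31-mers there were 7 rises of 21 tested, 0 falls and a median of 0.17. This alternative tests fewer genes. Over the 14 settings with the same threshold, 28 of the 33 rises were called in each. Zfp942 was called in 10, Zfp995 in 12, and Zfp951, Zfp970 and Zfp973 in 13, lost only when the control library of middle depth was left out. Another 6 members not called in the main comparison were called in at least 1 setting. All 273 repeats for the 21 members singled out by the naming rule kept their direction and their call. The adjusted p alone crossed 0.05 for Zfp983 (0.0349 without the control library of middle depth) and Zfp963 (0.0982 and 0.0966 without the KD-1 library of middle or highest depth), both short of 1.5-fold. No member lies on chromosome 1, so leaving that chromosome out changed nothing. No paired analysis was possible because the columns carry no replicate number that matches the labels.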

Other observations

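Other symbols of the same number range stand outside the rule. Zfp955a and Zfp955b carry a letter suffix, with log2 fold changes of 0.18 (edgeR adjusted p = 0.0814) and 0.03 (edgeR adjusted p = 0.704), and neither was called. The pseudogene Zfp939 was at -0.39 (edgeR adjusted p = 0.0167), short of a 1.5-fold change. The pseudogene Zfp996 had 1 count in the Control (NT) library of lowest depth, 1 in the KD-1 library of highest depth and 0 in the others.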
